A study of Mus musculus with 8 samples.

Results

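The subcortical maternal complex (SCMC) is a protein assembly that lies beneath the plasma membrane of the mouse oocyte and early embryo. Its transcripts were followed here through 7 genes chosen by name, Nlrp5, Ooep, Tle6, Khdc3, Padi6, Nlrp2 and Zbed3, which are 7 of the 46078 genes in the deposited count table. Each of the 7 was found once, and each passed the filter on low counts. RNA-seq was performed on fully grown germinal vesicle (GV) oocytes, the stage of arrest before meiosis resumes, in 4 libraries of CNOT7&8 KO oocytes and 4 libraries of Zp3-Cre control oocytes, with 100 oocytes in each library. In the KO, floxed alleles of Cnot7 and of Cnot8 (fl/fl) were deleted by a Cre transgene under the promoter of Zp3, a zona pellucida gene that is switched on in growing oocytes. Control oocytes came from mice with the same Cre transgene, per the labels, so that both groups carry Cre. Per the study's methods, the mice had a C57BL/6J background and GV oocytes were taken from females of 4 weeks primed with gonadotropin. The comparison asks how the RNA of these cells differs when both DEDD-type deadenylases of CCR4–NOT, the complex that shortens poly(A) tails, are missing. Nothing in the labels says whether libraries of a group came from separate animals, so that p-values measure the spread between libraries, which may be technical.

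SCMC genes are maternal-effect genes: their mRNAs are made and stored while the oocyte grows, and embryos of mothers that lack a core member usually stop during the first cleavages. NLRP5 (also called MATER), OOEP (FLOPED) and TLE6 form the core of the complex, and KHDC3 (FILIA) binds to it through NLRP5. PADI6 is needed for the cytoplasmic lattices, fibrous structures of the oocyte cytoplasm that contain SCMC proteins. NLRP2 and ZBED3 were found as partners of the complex.

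Of the 7 transcripts, 4 were lower in CNOT7&8 KO oocytes (Tle6, Nlrp2, Ooep and Padi6), 1 was higher (Khdc3), and 2 did not pass the test (Nlrp5 and Zbed3). The lower transcripts ranged from a log2 fold change of -1.24 for Tle6 to -0.31 for Padi6, whereas Khdc3 had a log2 fold change of 2.17. These counts rest on edgeR's quasi-likelihood test with a false discovery rate (FDR, the Benjamini-Hochberg adjusted p) of at most 0.05 over 19241 genes. By that test 24.1% of all genes were lower and 31.2% were higher, so that calls were frequent in this comparison. When DEGs were defined by FDR and a fold change of at least 2, Tle6 was downregulated, as were 6.56% of all genes, and Khdc3 was upregulated, as were 23.8% of all genes. For 4 members every KO library lay below every control library, which held for 21.4% of all genes. For Khdc3 every KO library lay above every control library, which held for 27% of all genes.

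Among the 7 members the median log2 fold change was -0.31, beside 0.12 over all genes tested. Apart from Khdc3 the members were abundant transcripts, and abundant transcripts were shifted as a whole. For the 2414 genes that averaged 100 CPM or more, the median log2 fold change was -0.37, and 55.2% of them were lower by FDR, while 6.05% were downregulated and 1.57% were upregulated by 2-fold. CPM values are counts scaled to a common library size after adjustment by the TMM method of edgeR. A CPM is a share of the RNA in a library and not an amount per oocyte. Fewer cells of a type and less RNA per cell cannot be told apart in such data.

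Total counts ranged from 8639444 to 44092144 per library. Cnot8, a deleted gene, fell to between 33.1 and 36.1 CPM in KO libraries from between 154 and 197 CPM in control libraries, and Cnot7, the other one, was between 622 and 789 CPM in KO and between 886 and 1049 CPM in control libraries. Counts over a whole gene include exons outside the deleted part, whose extent is not given in the sources used here. Control replicate 1, the deepest library, stood apart from the other 3 controls for several members. It had the highest Nlrp5, Padi6, Nlrp2, Zbed3 and Khdc3 and the lowest Tle6 of its group. Fold changes of these members are therefore given with and without it, for Tle6 within a range over single libraries. All 10 oocyte markers were detected, with summed levels of 18942 to 19872 CPM in control and 14723 to 17515 CPM in KO libraries, which matched the labelled cell type.

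Sequences are shown first for the 3′ ends of the transcripts, because the study concerns poly(A) tails and the 3′UTR elements that regulate them. The 3′UTR was taken from the longest complete coding transcript of each gene in GENCODE vM21, on the genome build of the files (GRCm38). The 3′UTRs of 5 members were short, with 109 bases in Nlrp5, 130 in Tle6, 189 in Nlrp2, 221 in Padi6 and 246 in Khdc3. Those of Zbed3 and Ooep were long, with 1085 and 1446 bases. Over 15287 genes the median length was 1066 bases, and 15.0% of genes had a 3′UTR shorter than 250 bases, a limit set after the lengths of the members were seen. The first search was for the cytoplasmic polyadenylation element (CPE), spelled TTTTAT on the strand of the mRNA, where the CPEB protein binds and controls the length of the poly(A) tail. Zbed3 was the only member of the 7 that held it, with 4 copies. The 4 sites, on the plus strand of chromosome 13, are written 5′ to 3′ with the CPE in capitals and U as T, and they begin at bases 205, 885, 923 and 1072 of the 3′UTR.
Zbed3 CPE at chr13:95336949-95336978: aaggggcatggtTTTTATccaggaacctgg
Zbed3 CPE at chr13:95337629-95337658: cgtaaatgccttTTTTATgagacgtttgaa
Zbed3 CPE at chr13:95337667-95337696: ctgaccattataTTTTATaaaaaccacata
Zbed3 CPE at chr13:95337816-95337841: tttttaataaacTTTTATttatctgc
The last of these windows also contains the poly(A) signal of Zbed3 (aataaa), with 1 base between it and the CPE, and this CPE overlaps an AU-rich element.

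A CPE was present in 55.1% of the 15287 3′UTRs, in 11.9% of those shorter than 250 bases and in 61.1% of those of 1000 to 1500 bases, so that its absence from the short members is common for their length. A Pumilio element spelled TGTAAATA was found in none of the 7 members and in 11.8% of all 3′UTRs. The AU-rich element core ATTTA, bound by proteins such as ZFP36L2, occurred 8 times in Ooep, once each in Nlrp5, Khdc3, Nlrp2 and Zbed3, and in neither Tle6 nor Padi6. It was present in 68.4% of all 3′UTRs, in 19.8% of those shorter than 250 bases and in 81.1% of those of 1000 to 1500 bases. How many copies are usual for the length of Ooep was not examined. A match of letters is a description and does not show that a protein binds there.

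The last copy of the canonical poly(A) signal AATAAA, which directs cleavage of the nascent RNA, lay between 12 and 18 bases from the annotated end in all members other than Ooep. Nlrp2 held a further copy 55 bases from its end. The signal occurred in 81.5% of all 3′UTRs. Ooep held no AATAAA but 3 copies of the variant ATTAAA. The last signal of each of the 5 members with a short 3′UTR is shown, in capitals, because it marks the end to which the poly(A) tail is added.
Nlrp5 at chr7:23441887-23441916, plus strand: tagcaagaatgaAATAAAcacagcatttag
Tle6 at chr10:81590907-81590936, minus strand: cgagttgcgtgtAATAAAacaattgaaatg
Nlrp2 at chr7:5298552-5298581, minus strand: ggtatattggggAATAAAagggaaaacatg
Padi6 at chr4:140727361-140727390, minus strand: tgccatagagccAATAAAgcatggtattct
Khdc3 at chr9:73104409-73104438, plus strand: ttaaagtattctAATAAAaaaaaaattgca
The members with a short 3′UTR moved in different ways: Tle6, Nlrp2 and Padi6 were lower, Khdc3 was higher and Nlrp5 did not pass the test. Ooep, with a long 3′UTR that holds 8 copies of ATTTA, was lower, and Zbed3, with the CPEs, did not pass. Among genes of at least 100 CPM, the 262 with a 3′UTR shorter than 250 bases had a median log2 fold change of -0.55, and the 2095 with a longer one had a median of -0.36. In the same genes, 72.1% of the former and 53.8% of the latter were lower by FDR. Split by the CPE instead, the 1582 genes with a CPE had a median of -0.32, and 50.1% were lower. The 775 without a CPE had a median of -0.51, and 67.6% were lower. A CPE is rarer in short 3′UTRs, so that the 2 splits are not independent. These medians are descriptions without a test, and the part of 3′UTR length or of the CPE in the changes of the members was not tested.

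**Figure D1:**
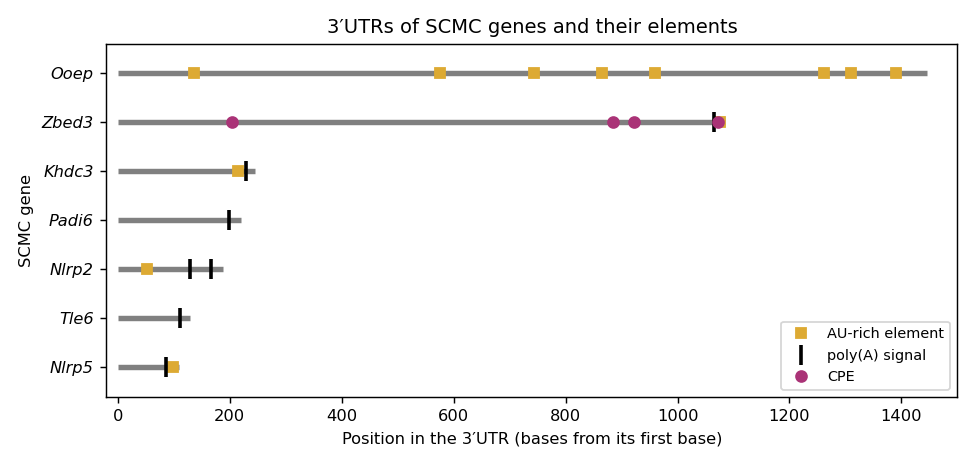
3′UTRs of the 7 SCMC genes drawn to scale from their first base (x axis, bases), 1 line per gene, with the AU-rich element ATTTA as squares, the poly(A) signal AATAAA as black ticks and the CPE as circles. The 4 CPEs are on Zbed3, 8 ATTTA cores are spread over Ooep, and the other 5 genes have 3′UTRs of 109 to 246 bases.

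The core members came first. Nlrp5 lies on chromosome 7 (bases 23385889 to 23441922, plus strand) and encodes a leucine-rich repeat protein on which the core is built. Its transcript measured 2921, 1632, 1676 and 1708 CPM in control replicates 1 to 4 and 1719, 1741, 1401 and 1751 CPM in KO replicates 1 to 4. Control replicate 1 was far above the other 3 controls, KO replicate 3 was the lowest of all libraries, and the remaining 6 libraries lay within the range of 1632 to 1751 CPM. The log2 fold change was -0.26 (SE 0.18, 95% interval -0.65 to 0.12, FDR 0.227 by edgeR's quasi-likelihood test), and it became -0.02 without control replicate 1. A difference in Nlrp5 of the size seen in the other core members is outside this interval.

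Ooep, a small KH-domain protein gene, lies on chromosome 9 (78376109 to 78378725, minus strand). Control replicates 1 to 4 held 1733, 1627, 1753 and 1636 CPM, and KO replicates 1 to 4 held 958, 969, 851 and 877 CPM. The groups were far apart, with little spread inside either one. Its log2 fold change was -0.88 (SE 0.09, 95% interval -1.09 to -0.68, FDR 1.16e-05), and the mean level in KO was 0.542 of that in control.

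Tle6, which belongs to the Groucho family of co-repressors by sequence, lies on chromosome 10 (81590904 to 81601073, minus strand) and is the core member that fell most. Its level was 1683, 2102, 1926 and 2065 CPM in control replicates 1 to 4 and 930, 863, 878 and 617 CPM in KO replicates 1 to 4. Every KO library was below every control library, and KO replicate 4 was the lowest. The log2 fold change was -1.24 (SE 0.14, 95% interval -1.54 to -0.95, FDR 1.49e-05), with a mean in KO of 0.423 of the control mean. Left out in turn, single libraries gave values from -1.31 to -1.11.

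**Figure D2:**
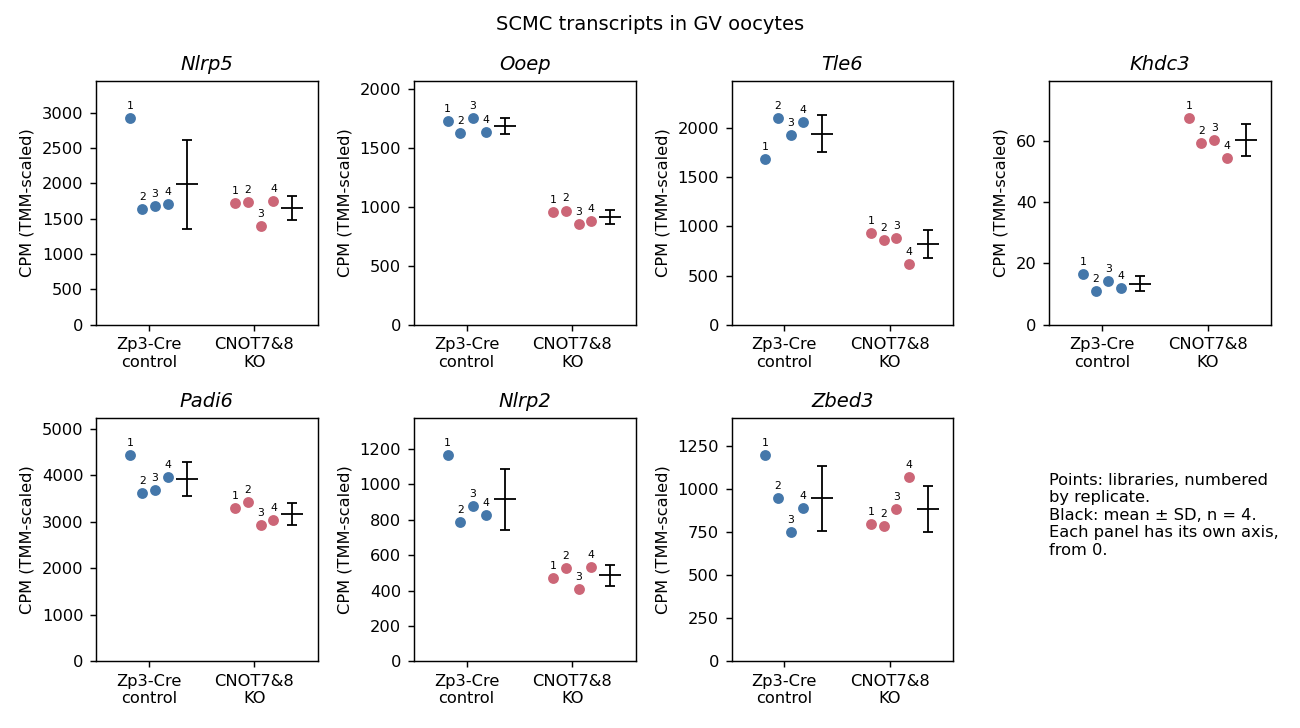
Level of each SCMC transcript (y axis, CPM with TMM scaling, each panel from 0) in the 4 Zp3-Cre control and 4 CNOT7&8 KO libraries, numbered by replicate, with mean ± SD in black (n = 4). The groups are separate for Ooep, Tle6, Nlrp2, Padi6 and Khdc3 and overlap for Nlrp5, where control replicate 1 is at 2921 CPM, and for Zbed3.

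By its counts, Khdc3 was the exception of the complex in both level and direction. It encodes a KH-domain protein that joins the core and has been linked to spindle assembly and chromosome stability in cleavage embryos. The gene lies on chromosome 9 (73101836 to 73104438, plus strand) and measured 16.4, 10.9, 14.2 and 11.9 CPM in control replicates 1 to 4. In KO replicates 1 to 4 it measured 67.3, 59.2, 60.1 and 54.5 CPM. All 4 KO libraries were well above all 4 controls. It had a log2 fold change of 2.17 (SE 0.15, 95% interval 1.83 to 2.5, FDR 5.79e-07) and a mean ratio of 4.51. The log2 value ranged from 2.08 to 2.46 over the 18 alternative fits and was 2.29 without control replicate 1. The reads behind it were few beside those of the other members, with 163 to 1600 counts per library.

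The level and the fold change of Khdc3 are uncertain for a reason of annotation. A protein-coding read-through gene on the same strand, Gm20509, shares 790 of the 2050 exonic bases of Khdc3 (38.5%), which leaves 1260 bases that belong to Khdc3 alone. Gm20509 was at 0 counts in all 8 libraries. Each of its annotated exons lies within exons of Khdc3 or of Rsl24d1, so that this 0 does not show whether it was expressed. The study's methods name the nf-core/rnaseq pipeline with STAR but not the counting tool, and some tools discard reads that fit more than 1 gene. The levels of Khdc3 and of Rsl24d1 would then be too low in both groups. The fold change of Khdc3 would rest on its unshared bases alone, part of which lie in an intron of Gm20509. None of this was tested, since reads were not analysed here. The genes on either side of Khdc3 moved the other way, with log2 fold changes of -0.51 (FDR 0.00205) for Rab27a, 4207 bases away and encoding a small GTPase of vesicle transport, and -0.30 (FDR 0.0223) for Rsl24d1, 8988 bases away and encoding a ribosome biogenesis factor.

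**Figure D3:**
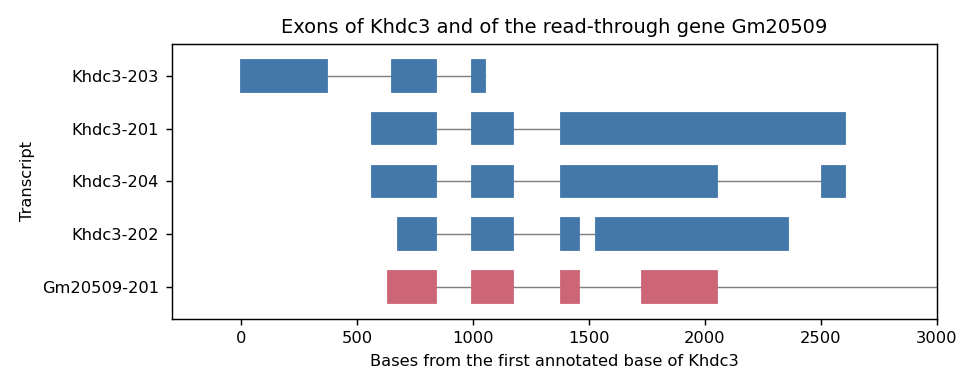
Annotated exons of 4 Khdc3 transcripts (blue) and of the read-through gene Gm20509 (red), drawn to scale along the gene (x axis, bases from the first annotated base of Khdc3). Gm20509 covers 790 of the 2050 exonic bases of Khdc3 and continues beyond the right edge, into exons of Rsl24d1 that are not drawn.

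Padi6, a gene for an oocyte member of the peptidylarginine deiminase family, was the most abundant of the 7 in every library. It lies on chromosome 4 (140727355 to 140742643, minus strand). Its level was 4440, 3624, 3676 and 3957 CPM in control replicates 1 to 4 and 3308, 3434, 2923 and 3037 CPM in KO replicates 1 to 4. The groups did not overlap, but KO replicate 2 and control replicate 2 lay close to each other. The log2 fold change of -0.31 (SE 0.11, 95% interval -0.54 to -0.07, FDR 0.0279) was the smallest among the called members. With the replicate number as a block the FDR was 0.0703, and without control replicate 4 it was 0.0657, both above 0.05. Without control replicate 1 the log2 fold change of Padi6 was -0.24 (FDR 0.0239).

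Nlrp2 lies on chromosome 7 (5298547 to 5351035, minus strand) and encodes an NLR protein whose loss in mothers has been connected with abnormal imprinting in offspring. Its transcript measured 1167, 790, 878 and 828 CPM in control replicates 1 to 4 and 473, 530, 408 and 535 CPM in KO replicates 1 to 4. All KO libraries were below all control libraries, with control replicate 1 the highest. Nlrp2 had a log2 fold change of -0.91 (SE 0.14, 95% interval -1.22 to -0.61, FDR 0.000178), which was -0.77 without control replicate 1. An opposite-strand pseudogene, Gm18757, shares 105 bases (2.99%) of the exons of Nlrp2.

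Zbed3, a zinc finger gene whose product has been connected with the placing of organelles in the oocyte, lies on chromosome 13 (95323612 to 95337841, plus strand). The values were 1198, 946, 749 and 889 CPM in control replicates 1 to 4 and 799, 783, 884 and 1070 CPM in KO replicates 1 to 4. The groups overlapped throughout, with control replicate 1 highest among controls and KO replicate 4 highest in the KO. The log2 fold change was -0.10 (SE 0.15, 95% interval -0.42 to 0.23, FDR 0.603), and its sign was positive in 4 of the 18 alternative fits.

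Levels were compared between genes only after division by the length of the longest transcript in kilobases (CPM per kb). In control oocytes the order was Padi6 with 1682 ± 160 CPM per kb (SD, n = 4), Tle6 with 965 ± 94.2, Ooep with 789 ± 30.3, Nlrp5 with 566 ± 178, Zbed3 with 486 ± 96.3, Nlrp2 with 269 ± 50.4 and Khdc3 with 7.95 ± 1.48. Among neighbours in this order, Nlrp5 overlapped with both Ooep and Zbed3 over the single libraries, the former only through control replicate 1 (833 CPM per kb, beside 465 to 487 in the other 3), while Tle6 and Ooep did not overlap. In KO oocytes Padi6 was still first with 1361 ± 101 CPM per kb, but the next 4 members lay together, Nlrp5 at 471 ± 48.0, Zbed3 at 455 ± 67.6, Ooep at 427 ± 27.3 and Tle6 at 408 ± 69.4, with overlap between each and the next. Nlrp2 followed at 143 ± 17.5 and Khdc3 at 35.9 ± 3.15 CPM per kb. Tle6 thus went from the second place in control to the fifth in KO oocytes. The uncertainty of the Khdc3 count makes its place at the low end uncertain as well.

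Summed over the 7 members, the transcripts made up 0.987% to 1.12% of all raw counts in control libraries and 0.845% to 0.929% in KO libraries. These ranges, without TMM scaling, did not overlap, and the mean ratio was 0.854. On the TMM scale the sums were 10672 to 13158 CPM in control and 7406 to 8381 CPM in KO libraries, a mean ratio of 0.700. The top of the control range was control replicate 1, and without it the control sums were 10672 to 11096 CPM.

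The make-up of this sum also differed, and shares within a library do not depend on the scaling between libraries. Padi6 went from a share of 35.3% ± 0.867 of the summed CPM per kb in control to 41.2% ± 1.24 in KO libraries (SD, n = 4). Tle6 went from 20.4% ± 3.29 to 12.4% ± 2.09, and Ooep from 16.6% ± 1.30 to 12.9% ± 0.269. For these 3 genes the ranges of the groups did not overlap. Zbed3 went from 10.1% ± 1.25 to 13.8% ± 2.43 without overlap, Nlrp2 from 5.62% ± 0.603 to 4.32% ± 0.431 without overlap, and Nlrp5 from 11.7% ± 2.57 to 14.3% ± 1.0 with overlap. That overlap came from control replicate 1 at 15.6%, as the other 3 controls were at 10.2% to 10.7% and the KO libraries at 12.9% to 15.3%, and without it the difference in share went from 2.54 to 3.82 percentage points. Khdc3 made 0.166% ± 0.0229 of the sum in control and 1.09% ± 0.0915 in KO libraries. No test was made on shares, which sum to a fixed total and so cannot move on their own. How often shares separate in other sets of genes was not counted. Ratios of gene pairs did so in 47.4% of pairs among genes of at least 100 CPM.

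**Figure D4:**
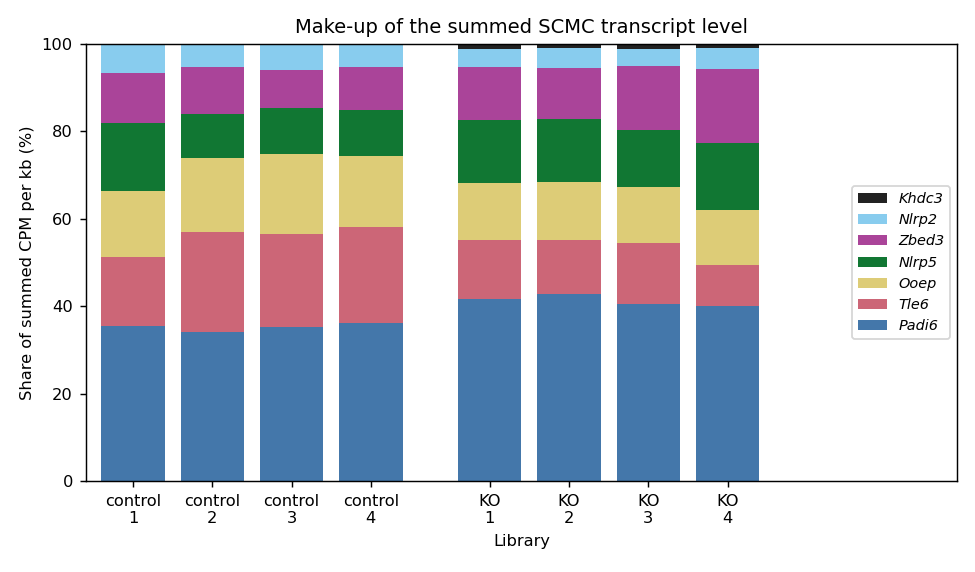
Share of each SCMC gene in the summed CPM per kb of the 7 genes (y axis, percent), 1 bar per library. The Padi6 part is 34.2% to 36.2% in control and 39.97% to 42.7% in KO libraries, and the Tle6 part is 15.6% to 22.9% in control and 9.40% to 14.1% in KO libraries.

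Ratios between pairs of members also need no scaling between libraries. Of the 21 possible pairs, 13 had ratios that did not overlap between the groups, including all 6 pairs with Khdc3 and 7 of the other 15. Such ratios were frequent in this comparison: 52.3% of all pairs among 8719 genes that averaged 10 CPM or more and had counts in every library, and 47.4% of those among the 2414 that averaged 100 CPM or more, did not overlap either, so that the count is no result about the members. The log2 ratio of Ooep to Padi6 was -1.36 to -1.07 in control and -1.82 to -1.78 in KO libraries. That of Tle6 to Padi6 was -1.40 to -0.79 in control and -2.30 to -1.74 in KO libraries. By contrast, Ooep to Nlrp2 was 0.57 to 1.04 in control and 0.71 to 1.06 in KO libraries, with overlap. Ooep to Tle6, 2 partners in the core, was -0.37 to 0.04 in control and -0.04 to 0.51 in KO libraries, also with overlap.

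How library sizes were scaled mattered for the members with small changes. TMM factors were 0.849 to 0.943 in control and 1.07 to 1.14 in KO libraries, so that scaling by library size alone raised every log2 fold change. With library size alone Nlrp5 had a log2 fold change of 0.03, Zbed3 of 0.20 and Padi6 of -0.02, and none of the 3 passed the FDR threshold. In the same fit Tle6 had -0.96, Nlrp2 -0.62 and Ooep -0.60, all still lower by FDR, and Khdc3 had 2.46, still higher. The median of all genes was 0.41 in that fit.

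**Figure D5:**
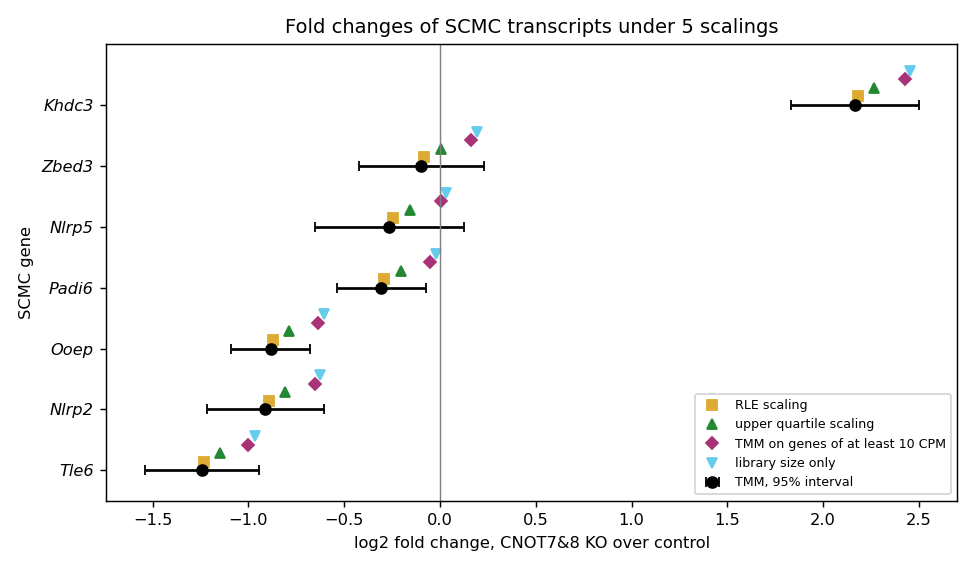
Log2 fold change of each SCMC transcript, CNOT7&8 KO over control (x axis), with TMM scaling (black circle and 95% interval) and under 4 other scalings of library size (coloured points). Tle6, Nlrp2 and Ooep are below 0 and Khdc3 is above 0 under all 5, whereas Nlrp5 and Zbed3 lie on either side of 0.

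Genes linked to the complex were next described from a list of 7: its partners Nlrp4f, Nlrp14 and Uhrf1, the actin-severing cofilins Cfl1 and Cfl2, Axin1, a scaffold of Wnt signalling that binds ZBED3, and Parp1, a DNA repair enzyme. Of these, 5 were lower and the other 2 did not pass, with a median log2 fold change of -0.73. By FDR, 24.1% of all genes and 55.2% of genes of at least 100 CPM were lower, the latter with a median of -0.37. Both DEGs of the list were lower, a 2-fold call that 6.56% of all genes and 6.05% of genes of at least 100 CPM also had. Nlrp4f, an NLR gene of the oocyte, had 4142, 2757, 3085 and 3103 CPM in control replicates 1 to 4 and 1276, 1295, 1018 and 1375 CPM in KO replicates 1 to 4 (log2 fold change -1.40, SE 0.14). Uhrf1, which recruits DNMT1 to replicating DNA, had 681, 952, 941 and 1007 CPM in control and 451, 327, 527 and 335 CPM in KO replicates 1 to 4 (log2 fold change -1.13, SE 0.17). The groups did not overlap for either gene. As for Nlrp5 and Nlrp2, control replicate 1 was the highest control for Nlrp4f, and as for Tle6 it was the lowest for Uhrf1.

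Relatives of the members by sequence were taken from a list of 16 paralogs, of which 15 were tested. By edgeR's quasi-likelihood test 9 were higher, as were 31.2% of all genes, and the other 6 did not pass. Their median log2 fold change was 0.62. The most abundant paralogs, Khdc1b and Khdc1c, were among those that did not pass. Khdc1b averaged 3585 CPM in control and 3267 CPM in KO oocytes (-0.13, FDR 0.424). Khdc1c averaged 634 CPM in control and 728 CPM in KO oocytes (0.20, FDR 0.162). The part of expression level in the changes of the paralogs was not tested. Of the 15 tested, 4 were upregulated by FDR and 2-fold, as were 23.8% of all genes. These 4 paralogs were all scarce, with Padi1, Padi3 and Padi4 at less than 2 CPM in every library. Tle3, a Groucho co-repressor of somatic cells, was at 1.48 to 3.58 CPM in KO and at most 0.219 CPM in control libraries. Their log2 fold changes were 2.01 for Padi1, 2.30 for Padi3, 2.20 for Padi4 and 4.28 for Tle3, on few reads. Padi1, Padi4 and Tle3 passed the filter on low counts only through KO libraries, so that a call in the other direction was hardly possible. Padi4, the neighbour of Padi6 at a distance of 3222 bases, was thus higher while Padi6 was lower. Dppa5a, a KH-domain gene 7932 bases from Ooep in the same gene family, was 176 to 279 CPM in control and 338 to 367 CPM in KO libraries (log2 fold change 0.70, FDR 0.00114), against the direction of Ooep. Neighbours of the members moved either way, as with Nlrp4e beside Nlrp5 (-1.49, FDR 5.07e-05) and Rcc2 beside Padi6 (1.15, FDR 0.000582).

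Other maternal-effect genes were taken from a list of 20 that are required by the embryo but lie outside the complex. By FDR, 24.1% of all genes and 55.2% of genes of at least 100 CPM were lower, and 31.2% of all genes were higher. By FDR and 2-fold, 6.56% of all genes were downregulated and 23.8% were upregulated. Of the 20 listed, 12 were lower, 2 were higher and 6 did not pass. Their median log2 fold change was -0.30, beside -0.31 for the SCMC members and -0.37 for genes of at least 100 CPM. Those downregulated by 2-fold were Dnmt1, the maintenance DNA methyltransferase, at 3936 to 4698 CPM in control and 1731 to 2089 CPM in KO libraries (log2 fold change -1.20), and Zar1l, an RNA-binding zygote arrest protein gene, at 369 to 552 CPM in control and 163 to 246 CPM in KO libraries (-1.12). Zfp36l2, whose product binds AU-rich elements and recruits CCR4–NOT, was upregulated from 2.7 to 5.6 CPM in control to 6.8 to 15.8 CPM in KO libraries (1.54).

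Transcription factors that act upstream in oocyte growth were also uneven. Of 7 listed, 3 were lower, 3 were higher and 1 did not pass, with a median log2 fold change of -0.35. Over all genes tested 24.1% were lower and 31.2% were higher. Figla, the factor best known for switching on zona pellucida genes, was at 16.5 to 26.7 CPM in control and 10.2 to 15.4 CPM in KO libraries (log2 fold change -0.63, FDR 0.0124). Nobox, a homeobox factor of oocyte genes, was at 432 to 518 CPM in control and 556 to 622 CPM in KO libraries (0.35, FDR 0.00926). The 1 DEG was Sohlh1, which was upregulated (1.65), as were 23.8% of all genes. It was below 1 CPM in every library and passed the filter on low counts only through KO libraries. The part of these factors in the levels of the SCMC transcripts was not tested.

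The genes whose pattern over the 8 libraries was most like the mean log2 CPM of the 7 members were Actl6a (Pearson's r 0.984), Hspd1 (0.982), Hnrnpa3 (0.981), Zfp951 (0.981) and Tcl1b5 (0.979), among 8721 candidates of at least 10 CPM. Their log2 fold changes lay between -0.41 and -0.25. This likeness is over 8 libraries of 2 groups that differ in depth and genotype and is given as a description.

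Granulosa cells surround the oocyte and can be carried into a library. The 12 granulosa markers summed to 115 to 154 CPM in control and 176 to 218 CPM in KO libraries. Nr5a2 made up most of the KO sum, with a mean of 122 CPM beside 56.6 CPM in control. Of the 11 tested, 4 were higher (Fshr, Inha, Fst and Nr5a2), 1 was lower (Cyp19a1) and 6 did not pass. Over all genes tested 31.2% were higher and 24.1% were lower. Cyp19a1, the marker with the highest control mean, was at 50.4 to 67.7 CPM in control and 23.5 to 38.1 CPM in KO libraries (log2 fold change -0.90). Foxl2, a defining marker, was at or near 0 in all libraries. Inha and Fst were higher in KO replicates 1 to 3 than in any control, but in KO replicate 4 they were within the range of the controls, at 4.77 and 1.53 CPM. Fshr (2.9 to 5.77 CPM) and Nr5a2 (114 to 132 CPM) were above every control in all 4 KO libraries, with controls at 0.95 to 1.58 CPM and 48.3 to 69.3 CPM. Of 8 markers of blood, theca and stroma, the 4 globin genes were at 0 in all libraries and 4 were tested. Ptprc, a leukocyte gene, was upregulated at a low level, 0.33 to 1.11 CPM in KO and 0.03 to 0.34 CPM in control libraries (log2 fold change 2.53, FDR 0.0108), and the other three did not pass. The part of such cells in the changes of the SCMC transcripts was not tested.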

How the data were processed

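RNA-seq of GV oocytes was analysed in 8 libraries, 4 of CNOT7&8 KO and 4 of Zp3-Cre control, of 100 oocytes each. The authors depleted ribosomal RNA, used the nf-core/rnaseq pipeline to map read pairs to GRCm38 with STAR 2.6.1d, and deposited raw counts per gene, without normalization. The study's methods name a stranded mRNA kit, whereas the labels name a stranded total RNA kit. The counting step of that pipeline, annotation release and strand setting are not given in the sources used here. The labels gave the groups and the replicate numbers.

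Genes of at least 0.2 CPM in 2 libraries were kept, which left 19241 of the 28353 genes with a count. They were fitted together in R 4.3.3 with edgeR 4.0.16 by the quasi-likelihood test on TMM-scaled counts with Benjamini-Hochberg adjustment over all of them. DEGs had an FDR of at most 0.05 and a 2-fold change. The code was tested on simulated data. Alternatives were edgeR's exact test, DESeq2 1.42.0, other scalings and filters, a replicate block and leaving out libraries. Coordinates and 3′UTRs came from GENCODE vM21. Total counts were 8639444 to 44092144, and 3 counts, taken as the floor, are 0.347 CPM in the shallowest library (counting error only). Members and lists were chosen with earlier results of these data known. The text names all 7 members, then from each list the DEGs or otherwise up to 4 of the most abundant genes, the 5 genes most like the members, and Cnot7 and Cnot8. Genomic neighbours, Dppa5a, Khdc1b, Khdc1c, Figla, Nobox, Cyp19a1, Foxl2, Pecam1 and overlapping genes are named beyond this rule, chosen after their values were seen.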

Additional observations from a re-analysis of the deposited data

Results flagged for a closer look

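In 30 sets of 4 libraries, the highest or lowest value was compared with its group by Dixon's ratio, for which chance alone gives about 1.5 flags. There were 4. The sets share values, since the sum and the shares are built from the CPM of the members. Flags of Nlrp5, of its share and of the sum in the same library are therefore not separate events, and the number of flags cannot be read as an excess. Nlrp5 in control replicate 1 stood at 2921 CPM, beside 1632 to 1708 CPM in the other controls. Its share of the summed CPM per kb of the complex stood apart in the same library, at 15.6% beside 10.2% to 10.7%. The sum of the 7 transcripts was 13158 CPM in control replicate 1 and 10672 to 11096 CPM in the other controls. Nlrp5 in KO replicate 3 was 1401 CPM, beside 1719 to 1751 CPM in the other KO libraries.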

How the results depend on the processing

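Over 18 alternatives the calls of Ooep, Tle6, Nlrp2 and Khdc3 kept their direction and side of the FDR threshold. The median log2 fold change of the 7 members, -0.31, became -0.021 with library size only, -0.21 with upper quartile scaling, -0.053 with TMM on genes of at least 10 CPM, -0.24 with a filter of 1 CPM in 4 libraries, and -0.22 without both control replicate 1 and KO replicate 4, an alternative chosen after seeing the data. Leaving out single libraries gave -0.35 to -0.24. With library size only, 0 members were downregulated by 2-fold, as Tle6 stood at -0.96. Nlrp5 turned to 0.031 with library size only and 0.0065 with TMM on genes of at least 10 CPM. Zbed3 turned to 0.20, 0.0057 and 0.16 with library size only, upper quartile scaling and the TMM of abundant genes, in that order, and ranged from -0.19 to 0.037 when single libraries were left out, above 0 only without control replicate 1. Padi6 lost its call in 6 alternatives, including the replicate block (-0.30, FDR 0.0703). The block changed no other member's call, and the numbers did not pair the samples (correlations of deviations of same-numbered libraries -0.12 to 0.11). The scalings moved the median of all genes from 0.12 to as much as 0.41, and the cause of these shifts was not tested. Among the members counting error is largest for Khdc3, with 163 to 1600 counts per library.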
